A study of Sus scrofa with 70 samples.

Results

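The miRNAs of the bulbourethral gland (BG) were compared with those of the vesicular gland (VG) and prostate gland (PG), the other accessory sex glands of the boar. The small RNA data of the 3 glands comprised 18 libraries of the 30 small RNA libraries in the series, with 6 libraries of each gland, and the 6 BG libraries were set against the 12 VG and PG libraries. Glands came from 12-month-old adult male pigs of 2 breeds, with 3 libraries of each gland and breed. The breeds were the Banna mini-pig inbred line (BMI) and the Diannan small-ear pig (DSE), the non-inbred breed from which BMI was derived, and the labels give no treatment. Abundance was given as RPM, a read count scaled to the sum of miRNA reads of the library. Of 743 entries of the table, 413 reached 1 RPM in at least 3 of the 18 libraries and were tested. They comprised 344 entries of 291 known mature names and 69 predicted miRNAs that are named by chromosome and number. An entry is a mature miRNA with 1 of its precursors, so a mature miRNA that is made from several genes can appear more than once, and 58 tested entries shared all 18 values with another entry.

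miRNAs are short RNAs that guide Argonaute proteins to messenger RNAs, mostly by pairing of the seed, bases 2 to 8 of the mature strand, and lower the translation and stability of their targets. Many are restricted to cell types or body regions, such as miR-143 and miR-145 of smooth muscle, miR-206 of skeletal muscle, miR-375 and the miR-183 cluster of secretory and sensory epithelia, and miR-10 and miR-196, whose genes lie between HOX genes. The bulbourethral gland of the boar is a large mucous gland that secretes the gel of the ejaculate and is enclosed by the striated bulboglandularis muscle, whereas the vesicular gland and prostate secrete the fluid parts of seminal plasma.

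The mature strands below were chosen because the differences between glands rest on them, or because they share a seed with such a miRNA and differed from it in abundance. They are the RefSeq records of Sscrofa11.1, which held 222 of the 291 known names tested. The seed is in capitals.
miR-34c: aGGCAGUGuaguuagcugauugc
miR-196a: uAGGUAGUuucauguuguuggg
miR-152: uCAGUGCAugacagaacuugg
miR-148a-3p: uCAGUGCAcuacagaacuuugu
miR-148b-3p: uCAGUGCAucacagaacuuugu
miR-183: uAUGGCACugguagaauucacug
miR-182: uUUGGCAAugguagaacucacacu
miR-96-5p: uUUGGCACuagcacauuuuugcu
miR-206: uGGAAUGUaaggaaguguguga
miR-1: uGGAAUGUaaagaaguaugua
miR-10a-5p: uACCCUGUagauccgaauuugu
miR-10b: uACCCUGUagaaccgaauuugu
miR-143-3p: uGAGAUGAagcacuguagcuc
miR-145-5p: gUCCAGUUuucccaggaaucccuu
miR-221-3p: aGCUACAUugucugcuggguuu
miR-222: aGCUACAUcuggcuacugggucuc
miR-152, miR-148a-3p and miR-148b-3p share 1 seed, as do miR-206 and miR-1, miR-10a-5p and miR-10b, and miR-221-3p and miR-222. Counted from the 5′ end, miR-10b differed from miR-10a-5p by U12A alone, and miR-148b-3p from miR-148a-3p by C9U and U10C.

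The libraries held 13.0 to 21.7 M reads on the entries of the table, so that 3 reads corresponded to 0.138 to 0.23 RPM. The gland labels were checked in RNA-seq libraries of the same breeds, glands and replicate numbers, in TPM, which is scaled to transcript length and library size, although the labels do not say whether an RNA-seq and a small RNA library came from the same tissue piece. TFF3, a mucus-associated trefoil peptide, reached 8225 to 14955 TPM in BG and at most 14.9 TPM in the other glands. MSMB, a secretory protein of the prostate, reached 88607 to 178304 TPM in PG and at most 33.4 TPM in BG. AWN, a spermadhesin of seminal plasma, was between 1100 and 2576 TPM in VG and at most 0.162 TPM in BG, but BMI PG 2 also held 1499 TPM. Summed mRNA of 7 smooth muscle genes was lowest of VG in BMI VG 1 (558 TPM) and lowest of PG in BMI PG 3 (193 TPM) and BMI PG 1 (421 TPM), and skeletal muscle mRNA was high in BMI BG 1 and DSE BG 3. BMI VG 1 and BMI PG 3 were also low in miR-143-3p. Where a miRNA described below lost or gained a call against both glands without BMI VG 1 and BMI PG 3, or without BMI BG 1 and DSE BG 3, its value without them is given.

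Against the mean of VG and PG, 50 of the 413 entries were higher in BG (12.1%) and 41 were lower (9.93%). A call required an adjusted p below 0.05 and a log2 difference of at least 1 on the log2(RPM + 1) scale, by limma with breed as covariate and Benjamini-Hochberg adjustment over all 413 entries. Without BMI VG 1 and BMI PG 3 these counts were 39 and 38, without BMI BG 1 and DSE BG 3 58 and 46, and without BMI VG 1, BMI PG 1 and BMI PG 3 37 and 41. Differences of low entries are understated on this scale, and a log2 difference is given below with its standard error. The higher entries had 46 distinct names, 15 of them predicted miRNAs, and the lower entries had 33 distinct names, 5 of them predicted. In the glands taken singly, 81 entries were higher (19.6%) and 51 lower (12.3%) in BG than in VG, and 35 were higher (8.47%) and 44 lower (10.7%) than in PG. All 6 BG libraries lay above all VG libraries for 39 entries (9.44%) and below them for 31 (7.51%), and above all PG libraries for 11 (2.66%) and below them for 15 (3.63%). These contrasts share the BG libraries, and their values are given side by side. The labels do not say that the 3 libraries of a group came from separate animals, so the p-values measure the spread between these libraries. In bulk tissue, fewer cells of a type and less RNA per cell cannot be told apart.

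The scale of the libraries moved with the comparison. The median log2 difference of all 413 entries was 0.11 against the mean of both glands, 0.33 against VG and -0.09 against PG. With size factors in place of the total reads, it was 0.05, 0.11 and 0.01, and 62 entries were higher and 65 lower in BG than in VG, a share of 48.8% higher in place of 61.4%. On recovered reads edgeR gave 82 higher and 78 lower, and DESeq2 83 and 82. Against PG the share of higher calls was 44.3%. It was 50% with size factors (40 higher and 40 lower) and 52.8% by DESeq2 (56 and 50). By edgeR it was 64.8%, with 59 entries higher and 32 lower. miR-148a-3p alone took 51.3 to 72.2% of the counted reads in BG, so that its level bears on the RPM of every other miRNA. With miR-148a-3p and miR-143-3p taken out of the total, 66 entries were higher and 52 lower against both glands. Against VG these counts were 105 and 60, and against PG 39 and 56. All 43 named calls tested against both glands were kept. This setting was chosen after the data were seen.

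All 6 BG libraries lay above all 12 others for 11 entries (2.66%), of which 10 with 8 distinct names were called. miR-34c, a member of the p53-regulated miR-34 family that is abundant in testis and in ciliated epithelia, was at a lowest, median and highest value of 34.8, 44.1 and 58.8 RPM in BG. In VG it was at 1.80, 3.17 and 3.98 RPM, and in PG at 2.03, 3.8 and 8.55 RPM. The lowest BG library thus lay above the highest of the other glands, and the log2 difference was 3.29 ± 0.24 (limma, adjusted p = 1.7e-10). It was 3.47 ± 0.28 against VG and 3.11 ± 0.28 against PG. The mature strand lies at chr9:39280290-39280312 on the plus strand, in an intron of C9H11orf88 and opposite to an exon of BTG4. miR-34a, with another gene, was lower in BG, at 4.85 to 20.3 RPM, than in VG, at 21.0 to 97.1 RPM. In PG it was at 18.9 to 27.2 RPM, where the BG range overlapped, and the log2 difference from both glands was -1.39 ± 0.26 (limma, adjusted p = 2.0e-04). These 2 names were the tested members of the miR-34 and miR-449 family.

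miR-152 was the most abundant of the known miRNAs that were called and without overlap on the higher side. It was at 3071, 3800.1 and 4897 RPM in BG, at 521, 686 and 949 RPM in VG, and at 628, 1325 and 1952 RPM in PG. The BG libraries were 4.16-fold higher than the mean of the other glands, with a log2 difference of 2.06 ± 0.21 (limma, adjusted p = 5.6e-08). It lies at chr12:24292264-24292284 on the minus strand, in an intron of COPZ2, a subunit of the COPI coat of Golgi vesicles. COPZ2 mRNA was at 122 to 274 TPM in BG, with no overlap with VG, at 6.63 to 26.9 TPM, or PG, at 19.8 to 73.4 TPM. miR-148b-3p, with the same seed, lies in an intron of the paralogue COPZ1 at chr5:19531038-19531059 on the plus strand. It was at 1056, 1805 and 4336 RPM in BG, at 580.3, 845 and 2689 RPM in VG, and at 515, 779 and 1711 RPM in PG. These ranges overlapped, and the log2 difference was 1.02 ± 0.29 (limma, adjusted p = 0.0069). COPZ1 mRNA was at 164 to 251 TPM in BG and at most 119 TPM in the other glands.

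miR-148a-3p, the most abundant miRNA of these libraries, carries the same seed and lies apart from any gene at chr18:46415256-46415277 on the plus strand. Its share of the counted reads was 51.3 to 72.2% in BG, 17 to 50.9% in VG and 20.6 to 60.7% in PG. BG lay above VG in every library, and the prostate library within the BG range was BMI PG 3. The log2 difference of 0.97 ± 0.22 was below the size required for a call, although it passed the test (limma, adjusted p = 0.0014). It was called when BMI BG 2, BMI VG 1 or BMI PG 3 was left out singly, and also, at 1.16, without BMI VG 1 and BMI PG 3 (limma, adjusted p = 3e-06) and, at 1.02, without BMI BG 1 and DSE BG 3 (limma, adjusted p = 0.005). The 3 tested miRNAs of this seed thus had log2 differences of 0.97, 1.02 and 2.06.

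Of 59 called known names, 43 had a RefSeq record of the mature strand and were searched for coding host genes. miR-574-5p has no such record, and its host was added by its precursor gene. In all, 13 host genes were found and 10 were measured as mRNA. Of the 6 hosts of higher miRNAs, 5 reached 1 TPM. Of these 5, with the added host among them, 3 were higher in all BG libraries than in all others. Over all 16856 genes that reached 1 TPM, this held for 1502 (8.91%). All 4 hosts of lower miRNAs overlapped between BG and the other glands. The host without overlap beside COPZ2 and COPZ1 was the added FAM114A1, the host of miR-574, at 56.0 to 94.1 TPM in BG and at most 31.2 TPM elsewhere. The count of 3 thus includes a host whose miRNA was chosen after its values were seen. miR-574-5p, named here after its values were seen, was at 85.1, 276 and 398 RPM in BG, at 17.5, 34.2 and 51.9 RPM in VG, and at 34.2, 72.7 and 99.1 RPM in PG. Its highest PG library lay above the lowest BG library, and the log2 difference was 2.44 ± 0.31 (limma, adjusted p = 1.5e-06).

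Among the predicted miRNAs, chr14_13709 and chr9_43949 were higher in BG without overlap. chr14_13709 was at 17.4, 34.0 and 116 RPM in BG, at 0, 0.110 and 0.310 RPM in VG, and at 1.71, 4.72 and 14.5 RPM in PG. The levels were thus ordered BG, PG and VG without overlap, and the log2 differences were 5.07 ± 0.37 against VG and 2.72 ± 0.37 against PG. chr9_43949 was at 6.51 to 30.1 RPM in BG and at most 2.27 RPM in the other glands, a log2 difference of 3.58 ± 0.26 (limma, adjusted p = 1.7e-10). Their names come from prediction on small RNA reads, and what they are was not tested.

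**Figure D1:**
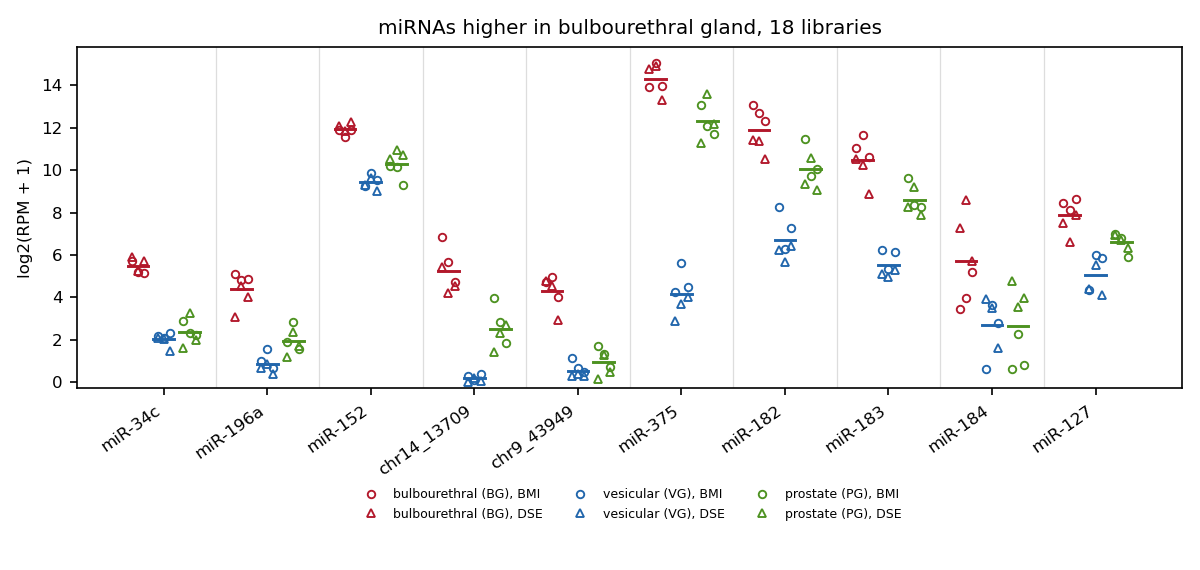
miRNAs higher in bulbourethral gland. The y axis is log2(RPM + 1), each point is 1 of 18 libraries (circles BMI, triangles DSE, red BG, blue VG, green PG), and bars are means of 6 libraries; for miR-34c the BG points lie between 34.8 and 58.8 RPM and the others at 8.55 RPM or below, whereas for miR-184 the BG and PG points overlap.

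The epithelial miRNAs differed from each other in which gland BG stood apart from. Of 9 epithelial names tested, 5 were higher in BG than in the mean of the other glands, beside 12.1% of all entries, and none was lower, with a median log2 difference of 1.25 beside 0.11 for all entries. Against VG, 4 were higher, beside 19.6%, and 1 lower, beside 12.3%, with a median of 0.06, and against PG 6 were higher, beside 8.47%, with a median of 1.74. Epithelial mRNA (5 genes, summed) was at 1656 to 2228 TPM in BG, 613 to 1131 TPM in VG and 1080 to 1789 TPM in PG, and its part in these differences was not tested.

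miR-375, known for its role in pancreatic islets and in other secretory epithelia, had the largest log2 difference of all called entries. It was at 10053, 22000.3 and 34228 RPM in BG, at 6.30, 16.7 and 47.5 RPM in VG, and at 2486, 4487 and 12320.4 RPM in PG. VG was thus far below both other glands, and the ranges of BG and PG overlapped. The log2 difference was 10.18 ± 0.42 against VG (limma, adjusted p = 3.7e-15), or 1156-fold, and 2.01 ± 0.42 against PG (limma, adjusted p = 0.0012), or 4.02-fold.

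The miR-183 cluster, known from sensory organs and other epithelia, comprises miR-183, miR-96 and miR-182 within chr18:18982274-18986863 on the plus strand, and all 3 were called higher. miR-182 was at 1468, 3918 and 8539 RPM in BG, at 49.2, 80.8 and 308 RPM in VG, and at 541, 965 and 2839 RPM in PG. BG and VG did not overlap, BG and PG did, and the log2 differences were 5.22 ± 0.37 and 1.85 ± 0.37. miR-183 behaved alike, with medians of 1528, 38.7 and 318 RPM in BG, VG and PG, and with log2 differences of 4.99 ± 0.35 from VG and 1.9 ± 0.35 from PG. For miR-96-5p, the medians were 387, 38.3 and 367 RPM. It was 9.32-fold higher than in VG (limma, adjusted p = 3.1e-06), and its log2 difference from PG was 0.05 ± 0.44 (limma, adjusted p = 0.93).

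miR-205, a miRNA of basal and stratified epithelia, showed the opposite order of the other glands. It was at 100.2, 228 and 610.0 RPM in BG, at 127, 244 and 395 RPM in VG, and at 17.5, 31.6 and 199.6 RPM in PG. The log2 difference was 2.46 ± 0.37 against PG (limma, adjusted p = 2.5e-05) and 0.04 ± 0.37 against VG (limma, adjusted p = 0.94). miR-31, another epithelial miRNA, was the name called in opposite directions against the other glands. It was at 6.97, 17.6 and 24.4 RPM in BG, at 29.2, 50.6 and 101 RPM in VG, and at 0.650, 2.58 and 32.5 RPM in PG. All BG libraries lay below all VG libraries, with a log2 difference of -1.69 ± 0.50 (limma, adjusted p = 0.0081), and the difference from PG was 1.74 ± 0.50 (limma, adjusted p = 0.014). Without BMI VG 1, BMI PG 1 and BMI PG 3 the latter was 0.97 and not called (limma, adjusted p = 0.092). miR-200b, a general epithelial miRNA and the most abundant on this list, was at medians of 22534, 36056 and 21639 RPM, with a log2 difference of -0.16 ± 0.24 (limma, adjusted p = 0.60).

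**Figure D2:**
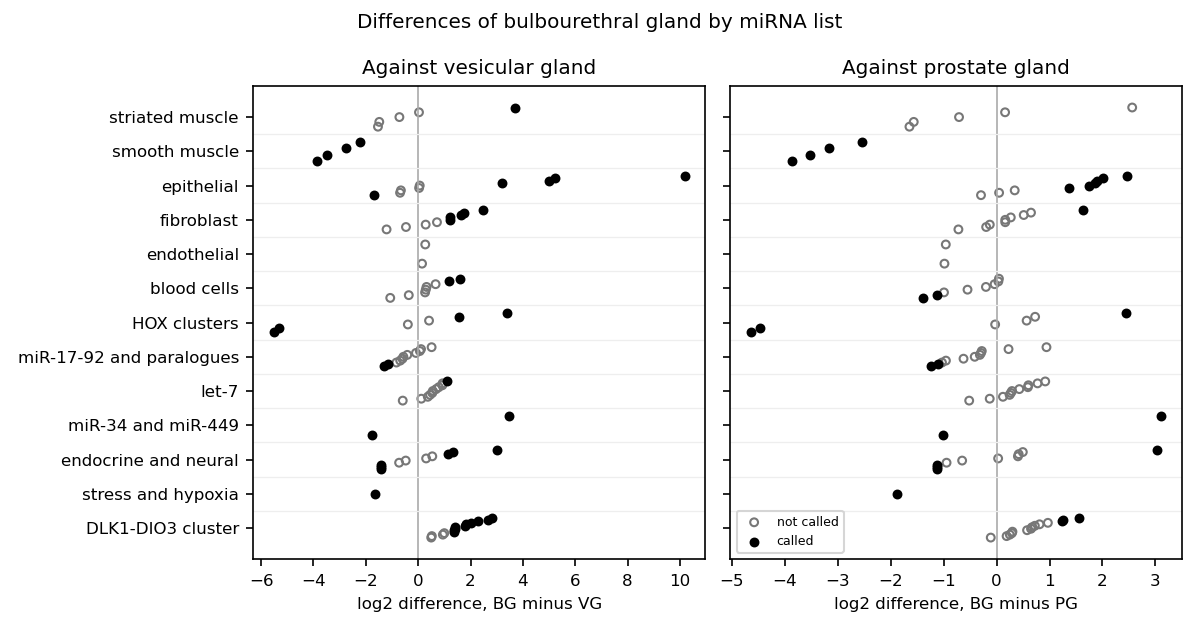
log2 differences of the bulbourethral gland by miRNA list, from vesicular gland (left) and prostate gland (right). Each circle is a mature name, filled where called; the 4 smooth muscle names lie to the left of 0 in both panels, and the farthest epithelial point on the left is miR-375 at 10.18.

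The lower miRNAs were led by miR-10a and by the miR-143 and miR-145 cluster. All 6 BG libraries lay below all 12 others for 11 entries (2.66%), of which 10 with 9 distinct names were called. miR-10a-5p, whose gene lies in the HOXB cluster, was at 607, 838 and 976 RPM in BG. It was at 29723, 33748 and 55822 RPM in VG and at 12273, 21013 and 36052 RPM in PG. The highest BG library was thus below the lowest library of any other gland, and the log2 differences were -5.51 ± 0.21 from VG (limma, adjusted p = 1.1e-15) and -4.64 ± 0.21 from PG (limma, adjusted p = 4.2e-14). The other arm, miR-10a-3p, was at 0.610 to 3.83 RPM in BG, 51.1 to 202 RPM in VG and 29.7 to 134 RPM in PG, a log2 difference of -4.90 ± 0.24 from both. The arms come from 1 hairpin and are not independent of each other.

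miR-10b, with the same seed and a gene in the HOXD cluster at chr15:81951653-81951674 on the plus strand, was at 12917, 17593 and 23159 RPM in BG. It was at 19289.6, 22335 and 29930.3 RPM in VG and at 5990.2, 11323 and 20411 RPM in PG. The ranges overlapped, and the log2 difference was 0.17 ± 0.17 (limma, adjusted p = 0.44). In BG the median of miR-10b was thus above that of miR-10a-5p, and in VG and PG it was below.

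miR-196a, which is made from a gene beside HOXC10 and a gene beside HOXB8, went the other way. Its entry of higher level was at 7.44, 24.9 and 33.8 RPM in BG, at 0.310, 0.675 and 1.97 RPM in VG, and at 1.29, 2.53 and 6.17 RPM in PG. All BG libraries lay above the others, and the log2 differences were 3.56 ± 0.30 from VG (limma, adjusted p = 1.5e-09) and 2.47 ± 0.30 from PG (limma, adjusted p = 1.1e-06). Its other entry gave 2.92 ± 0.25 against both glands. The mature strands are the same at chr5:19204463-19204484 (plus strand, 1488 bp from HOXC10) and at chr12:24886364-24886385 (minus strand, 6658 bp from HOXB8), so the loci cannot be told apart by their mature reads. miR-196b-5p was at medians of 171, 47.7 and 109 RPM in BG, VG and PG, a log2 difference of 1.07 ± 0.24 (limma, adjusted p = 0.0015) that fell below the call with size factors and, at 0.97, without BMI VG 1 and BMI PG 3. Of 6 names from HOX clusters tested, 2 were higher, beside 12.1% of all entries, and 2 were lower, beside 9.93%, with a median log2 difference of 0.18.

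HOX mRNA was read in the RNA-seq libraries, as values without a test. HOX genes encode transcription factors that set position along the body axis, and each cluster is transcribed in blocks of neighbouring genes. Of 9 HOXB genes that reached 1 TPM in any library, 8 (HOXB2 to HOXB9) were lower in all 6 BG libraries than in all 12 others. Over all 16856 genes that reached 1 TPM, this held for 110 (0.653%). HOXB5, HOXB8 and HOXB9 reached 1 TPM in VG and PG libraries alone, so that their place among the genes kept rests on those glands. The coding genes nearest to a miRNA were searched without genes that RefSeq names by LOC number, so a closer gene can be missing. By this search HOXB3 lay nearest to miR-10a, at 6137 bp. HOXB3 was at 0.320 to 1.3 TPM in BG, 11.0 to 69.7 TPM in VG and 8.77 to 17.9 TPM in PG. HOXB8, beside a miR-196a gene, was at 0 to 0.354 TPM in BG, 36.6 to 131 TPM in VG and 4.92 to 57.8 TPM in PG. The highest PG library was BMI PG 2, and the other 5 were at 4.92 to 14.6 TPM.

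Of the genes that reached 1 TPM in HOXA and HOXD, 2 of 9 and 1 of 9 were higher in all BG libraries than in all others, beside 8.91% of all genes, and the rest overlapped. HOXA10 was at 40.3 to 69.1 TPM in BG, 1.43 to 8.28 TPM in VG and 12.8 to 33.9 TPM in PG, and the other genes were HOXA11 and HOXD13. HOXC10, beside the other miR-196a gene, reached 1 TPM in BG libraries alone, so that its place among the genes kept rests on BG. It was at 0.187 to 1.92 TPM in BG and at most 0.146 TPM in VG and PG. The same held for HOXC11, at 0.163 to 1.13 TPM in BG and at most 0.146 TPM elsewhere, and the other 7 HOXC genes measured did not reach 1 TPM. HOXD8, the nearest coding gene to miR-10b by the same search, overlapped between BG, at 29.4 to 36.3 TPM, and both VG and PG.

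**Figure D3:**
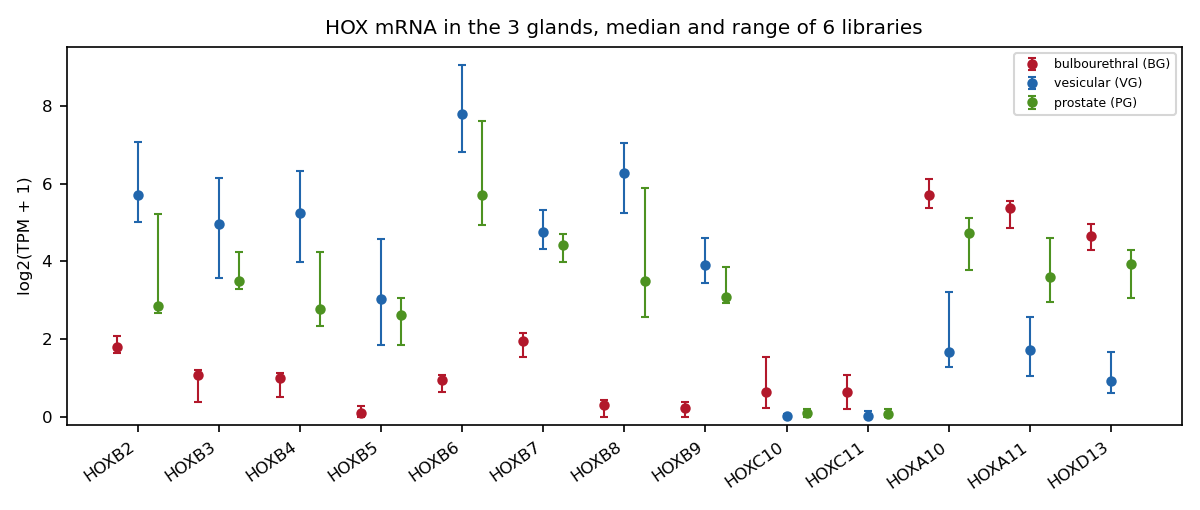
HOX mRNA in the RNA-seq libraries, as log2(TPM + 1), for the genes at which BG does not overlap the other glands. Points are medians and bars the range of 6 libraries of a gland; HOXB2 to HOXB9 are lowest in BG (for HOXB6 0.553 to 1.11 TPM beside 29.4 TPM or more), and HOXA10 is highest in BG.

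The smooth muscle miRNAs were lower in BG for all 4 names tested, with a median log2 difference of -3.23 against both glands, beside 9.93% of all entries. All 4 were also lower against VG, beside 12.3%, and against PG, beside 10.7%. miR-143 and miR-145 are made from neighbouring hairpins at chr2:150578752-150580200 on the plus strand and are best known from vascular and visceral smooth muscle. miR-143-5p was at 4.23, 7.40 and 10.2 RPM in BG, at 65.5, 100.5 and 298 RPM in VG, and at 86.4, 109 and 159 RPM in PG. miR-145-5p was at 133, 243 and 408 RPM in BG, at 863, 1599.7 and 3031 RPM in VG, and at 1338, 2381 and 3089 RPM in PG. Both were lower in all BG libraries than in all others, with log2 differences of -3.87 ± 0.25 for miR-143-5p (limma, adjusted p = 2.2e-11) and -2.97 ± 0.25 for miR-145-5p (limma, adjusted p = 1.9e-09). miR-145-3p overlapped with VG and had a log2 difference of -2.38 ± 0.24 (limma, adjusted p = 2.4e-08).

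The main arm, miR-143-3p, took 1.38 to 3.43% of the counted reads in BG. In VG it took 4.18% in BMI VG 1 and 29.9 to 35.6% in the other 5 libraries, and in PG 3.01% in BMI PG 3 and 29.4 to 50.6% in the other 5. BMI PG 3 fell within the BG range, and the log2 difference was -3.49 ± 0.49 (limma, adjusted p = 2.5e-05). Without BMI VG 1 and BMI PG 3, it was -4.02 (limma, adjusted p = 1.1e-14).

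Of these miRNAs, miR-143-3p was low where smooth muscle mRNA was low, except in BMI PG 1. miR-143-5p and miR-145-5p stayed above the BG range in all VG and PG libraries, BMI VG 1 and BMI PG 3 included. Without BMI VG 1 and BMI PG 3 their log2 differences were -3.72 and -3.12. The sum of 7 smooth muscle genes was at 215, 255 and 579 TPM in BG, at 558, 2163 and 4308 TPM in VG, and at 193, 1847 and 3462 TPM in PG. The lowest VG library was BMI VG 1 and the lowest PG library BMI PG 3, the libraries with the least miR-143-3p. BMI PG 1 held 421 TPM of smooth muscle mRNA with 29.4% miR-143-3p, and without these 3 libraries the log2 difference of miR-143-3p was -4.06. The part of muscle content in the miRNA difference was not tested.

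**Figure D4:**
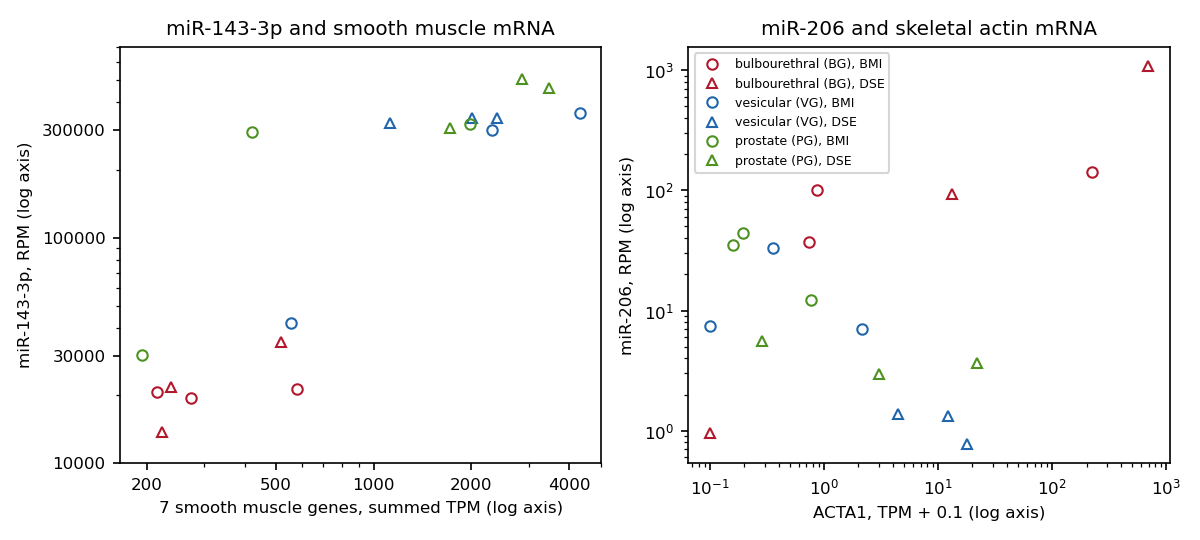
Muscle miRNAs against muscle mRNA of the libraries with the same title, on log axes. The left panel plots miR-143-3p (RPM) against the summed TPM of 7 smooth muscle genes, where BMI VG 1 and BMI PG 3 lie beside the BG libraries, and the right panel plots miR-206 (RPM) against ACTA1 (TPM + 0.1), where DSE BG 3 stands highest at 1081 RPM.

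The striated muscle miRNAs differed by library within BG. miR-206, found mainly in skeletal muscle, was at 0.960, 97.4 and 1081 RPM in BG, at 0.770, 4.21 and 33.1 RPM in VG, and at 2.95, 8.95 and 43.9 RPM in PG. The groups overlapped, and the highest BG library, DSE BG 3, also held the most mRNA of skeletal actin ACTA1, at 689 TPM, followed by BMI BG 1 at 222 TPM. The log2 difference was 3.13 ± 0.89 (limma, adjusted p = 0.0093), and 1.88 without both libraries (limma, adjusted p = 0.024). It was 3.71 ± 1.03 from VG (limma, adjusted p = 0.0071) and 2.56 ± 1.03 from PG, which was not called (limma, adjusted p = 0.071). The difference from PG was called without DSE BG 1, the lowest BG library, and on recovered reads with all libraries, at 5.21 by edgeR (adjusted p = 0.0145), and also by DESeq2. In DSE libraries alone miR-206 was not called against both glands (limma, adjusted p = 0.172).

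miR-1, with the seed of miR-206 and found in heart, skeletal and smooth muscle, was at 23.8, 195 and 4651 RPM in BG, at 202, 842 and 1524 RPM in VG, and at 468, 916 and 1013 RPM in PG. Its log2 difference was -1.52 ± 0.75 (limma, adjusted p = 0.10), and -2.48 without DSE BG 3 alone, which was called. Without BMI BG 1 and DSE BG 3 it was -2.87 (limma, adjusted p = 2.3e-05), so that miR-1 and miR-206 differed in direction in these libraries. miR-133a-3p, which shares precursor transcripts with miR-1, was at 2.12, 13.3 and 259.8 RPM in BG, at 18.2, 66.8 and 93.0 RPM in VG, and at 36.6, 66.4 and 89.8 RPM in PG. Its log2 difference was -1.59 ± 0.63 (limma, adjusted p = 0.047), and -2.73 without both libraries (limma, adjusted p = 1.3e-05). It was not called without BMI VG 1 and BMI PG 3, at -1.67 (limma, adjusted p = 0.084), nor with all libraries by edgeR or DESeq2. Of 5 striated muscle names tested, 1 was higher, beside 12.1%, and 1 lower, beside 9.93%, with a median log2 difference of -0.71. By edgeR 1 was higher and none lower, with a median of 0.05. Without BMI VG 1 and BMI PG 3 none was lower either, and without BMI BG 1 and DSE BG 3 3 were lower, with a median of -1.47. The third of these beside miR-1 and miR-133a-3p was miR-133b, at -1.47 (limma, adjusted p = 9.3e-05), which was at -0.71 and not called with all libraries.

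The other known miRNAs without overlap on the lower side were miR-135, miR-708-5p, miR-30e-5p and miR-210. miR-135 was at 76.9, 200.4 and 623 RPM in BG, at 875, 1119 and 1812 RPM in VG, and at 713, 1103 and 1326 RPM in PG. The log2 difference was -2.42 ± 0.30 (limma, adjusted p = 1.2e-06), and on the log2 scale BG spread the most of the glands. miR-708-5p was at 2.18 to 13.1 RPM in BG, 17 to 70.4 RPM in VG and 21.1 to 39.2 RPM in PG. It lies in an intron of TENM4, and its log2 difference was -2.33 ± 0.29 (limma, adjusted p = 9.5e-07). miR-30e-5p, 1 of 5 tested miRNAs with the miR-30 seed, was at 139 to 647 RPM in BG, 745 to 1523 RPM in VG and 804 to 2946 RPM in PG. It differed by -1.9 ± 0.29 (limma, adjusted p = 1.6e-05), and it was the member of its seed group that was called. The other arm of its hairpin, miR-30e-3p, differed by -0.26 and was not called.

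miR-210, the best known miRNA of the hypoxia response and the tested member of the stress list, was at 15.3, 20 and 27.8 RPM in BG. It was at 55.1, 56.4 and 113 RPM in VG and at 38.5, 70.4 and 169 RPM in PG, with a log2 difference of -1.77 ± 0.28 (limma, adjusted p = 2.7e-05). The BG libraries were all below the others and spread little. The predicted miRNA chrUn_NW_018084979v1_46901 was at 66.5 to 199 RPM in BG, 285 to 437 RPM in VG and 213 to 324 RPM in PG, a log2 difference of -1.24 ± 0.23.

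miR-221-3p and miR-222, which share a seed and lie within 1 kb of chromosome X, were named after their values were seen. miR-222 was at 24.4, 53.4 and 96.4 RPM in BG, at 307, 491 and 654 RPM in VG, and at 27.9, 89.2 and 471 RPM in PG. BG lay below VG without overlap and overlapped with PG, with log2 differences of -3.21 ± 0.46 and -0.93 ± 0.46. For miR-221-3p these were -2.82 ± 0.37 and -1.13 ± 0.37.

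**Figure D5:**
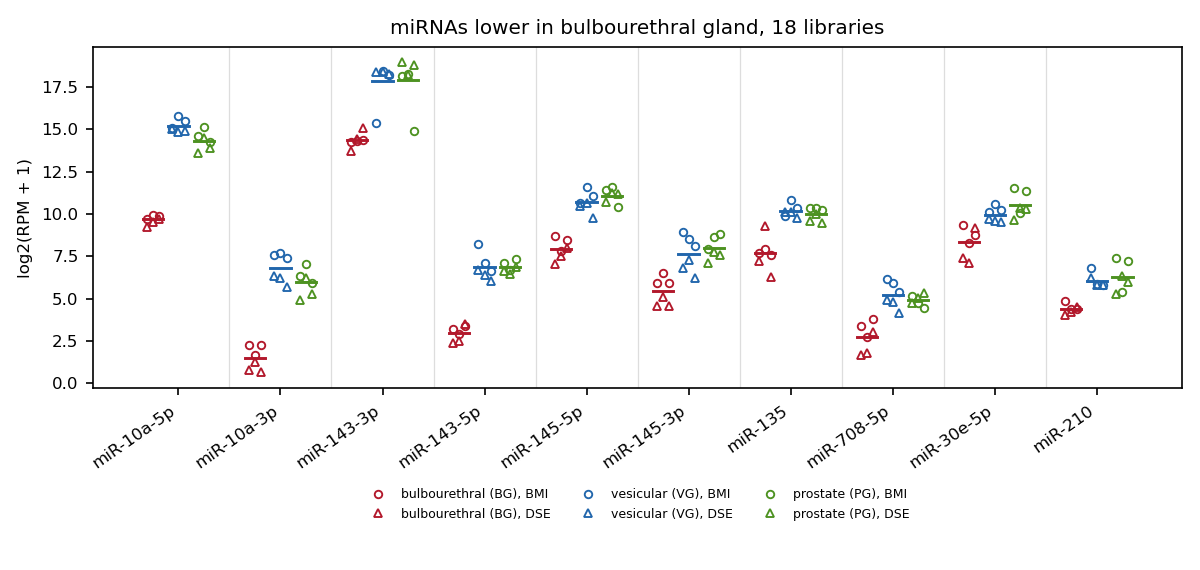
miRNAs lower in bulbourethral gland. The y axis is log2(RPM + 1), each point is 1 of 18 libraries (circles BMI, triangles DSE, red BG, blue VG, green PG), and bars are means of 6 libraries; miR-10a-5p is at 976 RPM or below in BG and at 12273 RPM or above elsewhere, and for miR-143-3p 1 VG and 1 PG point lie near the BG points.

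Imprinted miRNAs of the DLK1-DIO3 region, which are expressed from the maternal chromosome, differed in number called between the glands. Of 14 names tested, 9 were higher against both glands, beside 12.1% of all entries, and none lower, with a median log2 difference of 1.04. Against VG 10 were higher, beside 19.6%, with a median of 1.41, and against PG 3, beside 8.47%, with a median of 0.66. miR-127, which lies opposite to RTL1, was at 96.3, 255 and 396 RPM in BG, at 16.1, 32.4 and 63.4 RPM in VG, and at 58.5, 107.2 and 125 RPM in PG. It was separate from VG and overlapped with PG, with a log2 difference of 2.04 ± 0.31 (limma, adjusted p = 1.6e-05). miR-381-3p, the most abundant, was at 439, 1741 and 3666 RPM in BG, at 146, 441 and 972 RPM in VG, and at 937, 1139.9 and 1872 RPM in PG, with a log2 difference of 1.04 ± 0.33 (limma, adjusted p = 0.014). The other called names were miR-370 (1.96), miR-493-3p (1.92), miR-382 (1.49), miR-411 (1.32), miR-432-5p (1.07), miR-758 (1.04) and miR-299 (1.02), each as a log2 difference. miR-299, miR-382 and miR-432-5p had medians below 1 RPM in VG, at which the scale understates a difference. With size factors 7 names were higher, without BMI VG 1 and BMI PG 3 5 names, without BMI BG 1 and DSE BG 3 7 names, without BMI VG 1, BMI PG 1 and BMI PG 3 4 names, and by edgeR 12 names. The log2 differences of miR-381-3p, miR-299, miR-432-5p and miR-758 without BMI VG 1 and BMI PG 3 were 0.90, 0.95, 0.91 and 0.95, below a call. That of miR-411 was 0.99 when BMI PG 1 was left out as well, and those of miR-381-3p and miR-758 without BMI BG 1 and DSE BG 3 were 0.66 and 0.68.

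The fibroblast list had 3 of 9 names higher, beside 12.1% of all entries, and none lower, beside 9.93%, with a median log2 difference of 0.69, and the names were miR-152, miR-214-5p and miR-214-3p. With size factors, or without any of the 3 sets of libraries left out together, 2 of 9 were higher. miR-214-5p was at 30.6 to 68.7 RPM in BG, 6.06 to 27.9 RPM in VG and 20.7 to 43.1 RPM in PG. BG was separate from VG alone, and the log2 difference was 1.21 ± 0.26 (limma, adjusted p = 0.0010). miR-214-3p differed by 1.07 ± 0.27 (limma, adjusted p = 0.0034), which fell below the call with size factors. It was 0.95 without BMI VG 1 and BMI PG 3, and 0.94 without BMI BG 1 and DSE BG 3. On the same list, miR-199a-3p was at medians of 1736, 684 and 1313 RPM and was called against VG alone. Fibroblast mRNA (5 genes, summed) was at 500 to 2757 TPM in BG, 180 to 1220 TPM in VG and 162 to 1604 TPM in PG, and its part was not tested. miR-21-5p, the most abundant of this list, was at 12414 to 139948 RPM in BG, 59389 to 84171 RPM in VG and 9164 to 59807 RPM in PG. The BG range overlapped both other glands, with a log2 difference of -0.47 ± 0.45 (limma, adjusted p = 0.41). Without BMI BG 1 or DSE BG 3 it was called lower than in VG, and without both it was called lower against both glands, at -1.20 (limma, adjusted p = 0.011), the 1 lower name of this list in that setting.

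Of the list of endocrine and neural miRNAs, 1 of 10 names was higher, beside 12.1%, and 3 were lower, beside 9.93%, with a median log2 difference of -0.20. miR-184, known from lens, cornea and brain, was at 10, 43.4 and 379 RPM in BG, at 0.530, 8.15 and 14.2 RPM in VG, and at 0.550, 7.34 and 26.1 RPM in PG. BG overlapped with both, and the log2 difference was 3.03 ± 0.55 (limma, adjusted p = 2.8e-04). The 3 lower names, miR-9, miR-9-1 and miR-9-2, carry the same values and stand for 1 measurement, at 44.7 to 125 RPM in BG, 85.0 to 522 RPM in VG and 78.0 to 432 RPM in PG. Its log2 difference was -1.26 ± 0.36 (limma, adjusted p = 0.0069). It was -1.0 without BMI BG 1 and DSE BG 3, which was not called (limma, adjusted p = 0.058), and it was not called in DSE libraries alone. By edgeR 5 names of this list were lower.

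Of 8 blood cell names none was higher and 1 was lower, beside 9.93% of all entries. This was the erythroid miR-451, at medians of 573, 1285 and 1369 RPM and a log2 difference of -1.03 ± 0.39 (limma, adjusted p = 0.038). It was -0.97 without BMI VG 1 and BMI PG 3 (limma, adjusted p = 0.084) and -0.65 without BMI BG 1 and DSE BG 3 (limma, adjusted p = 0.23), and several libraries left out singly also ended the call. Without BMI BG 1 and DSE BG 3 the 1 lower name was miR-142-3p, at -1.24 (limma, adjusted p = 0.0086). The median of this list was 0.03. Against VG 2 names, miR-150 and miR-155-5p, were higher, beside 19.6%, with a median of 0.31, and against PG 2 names, miR-142-5p and miR-142-3p, were lower, beside 10.7%, with a median of -0.37. Leukocyte mRNA (5 genes, summed) was at 30.6 to 303 TPM in BG, 16.0 to 42.7 TPM in VG and 9.41 to 28.4 TPM in PG. JCHAIN, a gene of plasma cells, carried this sum at 15.2 to 279 TPM in BG, and without it the other 4 genes were at 9.47 to 38.1 TPM in BG, 14.6 to 40.6 TPM in VG and 6.96 to 23.6 TPM in PG. Neither endothelial name was called, and miR-126-3p was at medians of 2462, 1869 and 4486 RPM, with a log2 difference of -0.34 ± 0.27 (limma, adjusted p = 0.31).

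Of 11 names of the miR-17-92 cluster and its paralogues, known for their role in proliferation, 2 were lower, beside 9.93% of all entries, and none higher, with a median log2 difference of -0.46. miR-20a-5p was at 17, 48.2 and 101 RPM in BG, at 55.2, 95.5 and 345 RPM in VG, and at 45.1, 83.8 and 268 RPM in PG, a log2 difference of -1.21 ± 0.31 (limma, adjusted p = 0.0033). miR-19a was at medians of 1.41, 3.12 and 3.35 RPM, a log2 difference of -1.20 ± 0.32 (limma, adjusted p = 0.0045). Without BMI VG 1 and BMI PG 3 these were -0.99 and -0.90, and neither was called. Without BMI BG 1 and DSE BG 3 miR-19b was called as well, at -1.20 (limma, adjusted p = 0.0025), and by edgeR 4 names were lower. miR-92a, the most abundant, differed by 0.37 ± 0.26 (limma, adjusted p = 0.25).

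None of 11 let-7 names, which are abundant in differentiated tissues, was called against both glands, beside 12.1% higher and 9.93% lower of all entries, and their median log2 difference was 0.48. Without BMI BG 1 and DSE BG 3, 1 name, let-7f-5p, was called higher, with a log2 difference of 1.03 in place of 0.95. let-7i-5p, the most abundant, was at 8493, 13429 and 15714 RPM in BG, at 5516, 7772 and 10924 RPM in VG, and at 4958, 6621 and 9256 RPM in PG. It passed the test with a log2 difference of 0.80 ± 0.18 (limma, adjusted p = 0.0012).

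The predicted miRNAs of the unplaced scaffold NW_018084979 were 13 of the 69 tested, of which 5 were higher in BG, beside 12.1% of all entries, and 1 lower, beside 9.93%. Against VG 10 were higher, beside 19.6%, and 1 lower, beside 12.3%, and against PG 2 were higher, beside 8.47%, and 1 lower, beside 10.7%. Of the 56 predicted elsewhere, 10 were higher and 4 lower against both glands, beside the same 12.1% and 9.93%.

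The difference of BG from the other glands was compared between DSE and BMI in a fit with 6 groups of breed and gland. By limma, 0 of 413 entries were called (0%), 17 had an unadjusted p below 0.05, and the lowest adjusted p was 0.85. By edgeR on recovered reads 0 were called, with 23 below the unadjusted threshold. By DESeq2 1 was called, with 26 below the unadjusted threshold, and this was miR-206, at an adjusted p of 0.045. Without BMI PG 2, limma called the predicted miRNA chrX_48760.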

How the data were processed

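Small RNA libraries (NEBNext kit, single-end) were processed by the authors with cutadapt, removal of structural RNAs with Bowtie (1.3.1 in the submitters' notes), and miRDeep2 for prediction and quantification, and deposited as RPM with 2 decimals. RNA-seq abundances were deposited as TPM by the authors (Salmon 1.9.0), summed here over the transcripts of a gene. Entries with at least 1 RPM in 3 of 18 libraries were fitted as log2(RPM + 1), a pseudocount of 1. The fit was by limma 3.58.1 (gland and breed, trended, robust) in R 4.3.3. The fits were also run on simulated counts that held no difference between VG and PG or between breeds. That run does not bear on such differences in these data. The members and lists were chosen with earlier results of these data known. miRNAs were named where called without overlap and at 10 RPM or more on the higher side, where among the 3 most abundant, where called in opposite directions, or where called or most abundant on a list. As alternatives, size factors, other filters and pseudocounts, each library left out, libraries left out together (chosen after the data were seen), and edgeR 4.0.16 and DESeq2 1.42.0 on whole reads recovered from RPM steps (93.3 to 100% of low values whole within 0.1 read) were used. Same-numbered libraries were not taken as pairs, since the labels do not say whether they are. Of 18 same-numbered pairs, 9 had a correlation of deviations above 0.1. The median was 0.083, beside -0.042 for pairs of other numbers, which does not settle whether they are pairs. Intervals of counting error were not computed for RPM. Sequences and positions are from RefSeq on Sscrofa11.1 (the deposited build is susScr11). Mature miRNAs without such a record are given without sequence, and miR-574 was placed by its precursor gene.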

Additional observations from a re-analysis of the deposited data

Results flagged for a closer look

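In groups of 6 libraries of a gland, 5 of 159 groups held a library whose gap to its neighbour was a large share of the group's range, and chance gives about 1 in 20. For miR-143-3p, BMI VG 1 was lowest of VG at 41804 RPM, with the nearest library at 298917 RPM, and BMI PG 3 was lowest of PG at 30078 RPM, with the nearest at 293936 RPM. BMI VG 1 was also highest of VG for miR-96-5p, at 199 RPM beside 48.7 RPM in the nearest library. BMI PG 3 was also lowest of PG for miR-214-3p, at 42.3 RPM beside 70.4 RPM. For miR-34c, DSE VG 3 was lowest of VG at 1.80 RPM beside 3.08 RPM, and all VG libraries remained below those of BG.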

How the results depend on the processing

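Of the 50 higher and 41 lower entries, 44 and 41 were shared with size factors, and 49 and 36 with edgeR on recovered reads. Leaving out 1 library at a time gave 40 to 55 higher and 35 to 55 lower entries against both glands, 77 to 90 and 48 to 60 against VG, and 27 to 42 and 28 to 53 against PG, where the lowest, 28, came without DSE PG 2. For the breed difference it gave 0 to 1, the 1 being without BMI PG 2, the library with spermadhesin mRNA (predicted miRNA chrX_48760). Against both glands, edgeR gave 63 lower entries and DESeq2 72. Against VG these gave 78 and 82 lower, and against PG 59 and 56 higher. DESeq2 gave 1 breed difference. With DSE libraries alone 23 entries were higher than in PG, and with BMI alone 21 were higher and 13 lower. Other settings kept every count within 1.5 times. No named miRNA called against both glands changed direction, and of these 44 entries, 31 to 44 remained called where all were tested. Among named differences that were not called, some changed sign, such as miR-31 against both glands and miR-21-5p and miR-96-5p against PG. The calls of miR-133a-3p, miR-451, miR-381-3p, miR-758, miR-299, miR-432-5p, miR-214-3p and miR-196b-5p were each lost without at least 1 of the libraries left out singly. A replicate block gave 50 higher and 39 lower entries, 82 and 53 against VG, 35 and 44 against PG, and 0 for breed, and with it miR-133a-3p was not called. The labels do not say whether replicate numbers pair the libraries, and the correlations of same-numbered libraries, with 9 of 18 above 0.1, do not settle it. Entries near 1 RPM rest on few reads.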
